A study of Homo sapiens with 12 samples.

Results

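The genes described here are 10 genes of terminal erythroid maturation, TRIM58, UBE2O, UBE2H, BNIP3L, XPO7, CA1, CA2, BPGM, TMCC2 and ALOX15, selected by gene name from the 58735 genes of a count table of K562 RNA-seq. Of the 10 genes, 9 had enough reads to be tested and ALOX15 did not. K562 is an established human erythroleukemia line that carries the BCR-ABL kinase, the target of the tyrosine kinase inhibitor nilotinib, and hemin is an iron porphyrin that starts hemoglobin synthesis in these cells. The 12 libraries formed 4 groups of 3 biological replicates, all of the same line. Mock DMSO and mock nilotinib cells received no hemin (0 h), after 24 h with DMSO vehicle (0.1%) or 0.1 μM nilotinib in it, while hemin DMSO and hemin nilotinib cells received the same pretreatments and then 50 μM hemin for 24 h. By the study's methods the mock cells were collected when hemin was added, so hemin cannot be told apart from the added time in culture. Hemin nilotinib cells were likewise collected later after the start of nilotinib than mock nilotinib cells. A single transformed line is a limited model, since K562 cells neither enucleate nor complete maturation under hemin.

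In the last divisions before enucleation, erythroblasts remodel their proteome with ubiquitin-conjugating and ubiquitin-ligating enzymes, remove mitochondria by mitophagy, export nuclear proteins while the chromatin condenses, and fill the cytosol with hemoglobin, carbonic anhydrase and the enzymes of red cell glycolysis. TRIM58 is a ubiquitin ligase that targets dynein, UBE2O ubiquitinates unassembled globin and ribosomal proteins, and UBE2H is the E2 of the CTLH ligase. BNIP3L (NIX) is the mitophagy receptor of reticulocytes and XPO7 is a nuclear exporter. CA1 and CA2 hydrate carbon dioxide, BPGM makes 2,3-bisphosphoglycerate, ALOX15 is the reticulocyte lipoxygenase, and TMCC2 is a coiled-coil membrane protein of the endoplasmic reticulum.

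Promoter sequence from RefSeq (GRCh38.p14) matched 4 of the 10 genes, TRIM58, UBE2O, BPGM and TMCC2, of which nilotinib raised TRIM58 and BPGM and lowered TMCC2 while hemin raised UBE2O (values below). The bases before the transcription start are shown so that a reader can see the sequence from which these genes start, 5′ to 3′, and for UBE2O and BPGM without the bases that GENCODE places inside the gene. For TMCC2, which has 6 listed starts, the outermost is shown. Capitals mark matches to CCNCNCCC on either strand, a CACCC-type motif of the kind KLF1 reads, which also takes in GC boxes.
TRIM58, chr1:247856937-247857186, plus strand: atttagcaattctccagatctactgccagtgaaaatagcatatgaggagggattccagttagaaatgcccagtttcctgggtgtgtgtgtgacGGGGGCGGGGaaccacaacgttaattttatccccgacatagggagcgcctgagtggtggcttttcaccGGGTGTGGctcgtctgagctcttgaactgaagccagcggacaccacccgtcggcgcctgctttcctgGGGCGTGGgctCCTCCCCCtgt
UBE2O, chr17:76453207-76453402, minus strand: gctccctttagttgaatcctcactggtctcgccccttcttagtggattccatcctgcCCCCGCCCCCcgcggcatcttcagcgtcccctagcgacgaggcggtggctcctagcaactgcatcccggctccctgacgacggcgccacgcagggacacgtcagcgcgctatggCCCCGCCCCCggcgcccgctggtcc
BPGM, chr7:134646603-134646807, plus strand: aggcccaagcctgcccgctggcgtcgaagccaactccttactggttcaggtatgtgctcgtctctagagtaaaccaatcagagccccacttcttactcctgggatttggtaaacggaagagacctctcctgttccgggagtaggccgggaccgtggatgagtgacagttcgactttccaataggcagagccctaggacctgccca
TMCC2, chr1:205227696-205227945, plus strand: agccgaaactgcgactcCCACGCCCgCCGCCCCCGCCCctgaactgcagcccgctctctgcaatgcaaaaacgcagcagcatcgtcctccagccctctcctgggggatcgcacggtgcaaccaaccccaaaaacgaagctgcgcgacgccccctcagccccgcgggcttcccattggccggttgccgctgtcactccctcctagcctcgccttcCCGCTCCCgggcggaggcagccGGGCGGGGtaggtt

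Of all 35116 RefSeq promoters, 53.4% hold CCNCNCCC within the 250 bases before the start. The windows of TRIM58, UBE2O and TMCC2 hold it and that of BPGM does not. None of the 4 windows shown holds a GATA form (AGATAA or AGATAG or TGATAA or TGATAG on either strand, 22.3% of all promoters) or a heat-shock type repeat (GAANNTTC or TTCNNGAA, 11.6% of all promoters). The letters GCTGANTCA (1.11% of promoters) and TGACNNNGC (10.9%), of the kinds read by BACH1 and NRF2 partners, are absent as well, which says only that these letters are not in these windows. Windows of other TMCC2 starts, which lie inside the gene, do hold some of these letters: AGATAG at 97, at 24 and at 111 bases before a start, the last with TTATCT at 95 and the heat-shock type TTCTTGAA at 80.

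The 10 genes lie on 4 chromosomes. In GENCODE 29, whose identifiers and names equal those of the count table, TRIM58 spans chr1:247857199-247878205 and TMCC2 chr1:205228176-205285632 on the plus strand. UBE2H spans chr7:129830732-129952949 on the minus strand and BPGM chr7:134646808-134679813 on the plus strand. UBE2O spans chr17:76389451-76453206 and ALOX15 chr17:4630902-4642294, both on the minus strand. On chromosome 8 lie XPO7 (21919671 to 22006585), BNIP3L (26382898 to 26505636), CA1 (85327608 to 85379014) and CA2 (85463852 to 85481493). No exon of another gene overlapped theirs except for BNIP3L, of whose exon length 8.96% is overlapped by SDAD1P1 and PNMA2 on the opposite strand. Whether the reads were counted by strand is not given in the sources used here.

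The libraries held 33457078 to 50506990 counts each. The unit of level is CPM, reads of a gene per 1000000 counts of the library after TMM scaling, and 3 counts correspond to 0.054 to 0.0957 CPM. All 5 erythroid markers examined (GATA1, TAL1, KLF1, HBG1 and HBG2) were above that floor in every group, with a summed level of 839 to 1230 CPM in mock DMSO, 2920 to 4310 in mock nilotinib, 610 to 686 in hemin DMSO and 3250 to 3880 in hemin nilotinib. With hemin alone 2 of the 5 rose (HBG1 from a mean of 195 to 349 CPM and HBG2 from 17.2 to 33.4) and 3 fell (KLF1 from 284 to 24, TAL1 from 244 to 88.7 and GATA1 from 296 to 158), by the edgeR test. Over all genes 25.7% rose and 27.8% fell with hemin alone. The 6 myeloid markers summed to 36.2 to 54.5 CPM in the DMSO groups and 2.53 to 5.22 CPM in the nilotinib groups. The 5 lymphoid markers summed to 8.8 to 25.8 and 1.58 to 4.44 CPM. Of the 4 tested myeloid markers, 1 rose and 1 fell with hemin alone by the edgeR test. CD14 went from a mean of 0.497 to 9.4 CPM and CSF3R from 15.7 to 6.38 CPM. Of the 6 megakaryocyte markers, 4 were tested. Of these, 2 rose and 1 fell with nilotinib alone (20.7% and 21.8% of all genes). With nilotinib under hemin 2 rose and 2 fell (32.4% and 31.8% of all genes). The summed level of the 6 markers was 34.7 to 74.8 CPM in the DMSO groups and 15.4 to 37.1 CPM in the nilotinib groups. Most of it came from ITGA2B, with means of 49.5 CPM in mock DMSO and 15.8 CPM in mock nilotinib. Under hemin its means were 45.1 CPM without and 10.6 CPM with nilotinib. ITGB3 rose with nilotinib, by 2.49 on the log2 scale without and 2.12 with hemin (edgeR adjusted p = 1.98e-06 and 6.29e-06), and PF4 was at 0 in both mock groups. The mitochondrial share of counts was 1.45 to 2.88% in hemin DMSO and 5.2 to 8.83% in the other groups. Replicate 1 of hemin nilotinib stood apart, with a correlation of 0.969 with replicate 3, the lowest of any replicate pair. The part of these differences in the results below was not tested. In bulk RNA, fewer expressing cells and less RNA per cell cannot be told apart.

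The 10 genes did not move as a group. Nilotinib raised CA1, BPGM and TRIM58 and lowered TMCC2, with and without hemin. Hemin alone raised UBE2O and UBE2H and lowered TRIM58, CA1, XPO7 and BNIP3L. In cells pretreated with nilotinib, none of the 9 tested genes passed the test for hemin, where 3.52% of all genes were higher and 2.28% lower. CA2 passed no comparison in the main 12-library fit, which has no replicate block.

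**Figure D1:**
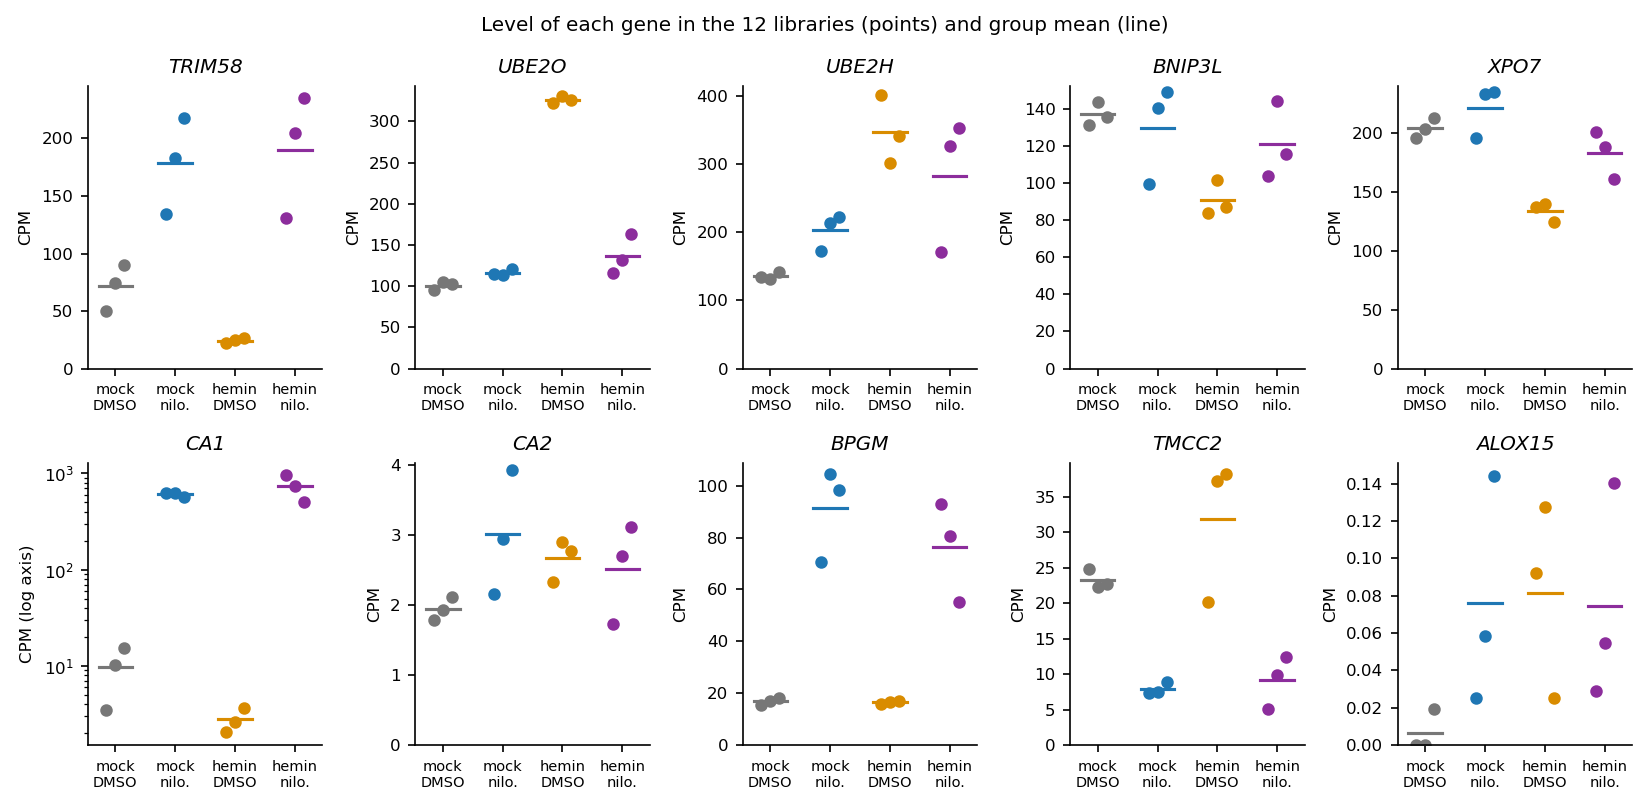
Level in CPM of the 10 genes in the 12 libraries, by group (nilo. is nilotinib). Points are libraries and lines group means, and the axis is linear from 0 except for CA1, whose axis is logarithmic. CA1 and BPGM are high in both nilotinib groups, UBE2O is high in hemin DMSO alone, and CA2 is under 4 CPM throughout.

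The first question was what nilotinib did to these genes in cells treated with hemin. By edgeR's quasi-likelihood test (Benjamini-Hochberg adjusted p under 0.05), 5 of the 9 tested genes were higher in hemin nilotinib than in hemin DMSO, against 32.4% of all 20821 genes tested, and 2 were lower, against 31.8%. The median log2 fold change was 0.42 for the 9 genes and 0.02 for all genes. Without hemin, 4 of the 9 genes rose between mock DMSO and mock nilotinib (20.7% of all genes) and 1 fell (21.8%), with a median of 0.58 against 0.00394 for all genes. Calls in either direction were common over the whole transcriptome as well.

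CA1, the abundant carbonic anhydrase of red cells, changed most. It stood at 3.53, 10.4 and 15.2 CPM in mock DMSO and at 631, 632 and 574 CPM in mock nilotinib. With hemin it stood at 2.05, 2.65 and 3.68 CPM without nilotinib and at 955, 743 and 505 CPM with it. Every nilotinib library was far above every DMSO library, and the hemin DMSO libraries did not overlap with any other group except mock DMSO, whose lowest library fell within their range. By the edgeR test, nilotinib raised CA1 by 5.98 ± 0.42 on the log2 scale (SE, 63.2-fold, adjusted p = 1.89e-08) without hemin and by 8.03 ± 0.47 (261-fold, adjusted p = 1.07e-09) with hemin. Hemin alone lowered CA1 by 3.44-fold (log2 fold change -1.78 ± 0.39, edgeR adjusted p = 0.00108). The rise with nilotinib was larger with hemin than without it by 2.04 ± 0.51 on the log2 scale (edgeR test of the interaction, adjusted p = 0.00742), and this difference was 1.10 with an adjusted p of 0.0694 by limma on log2(FPKM + 1).

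CA2, the high-activity carbonic anhydrase of red cells, did not follow CA1. It stood at 1.78 to 2.11 CPM in mock DMSO, 2.16 to 3.92 in mock nilotinib, 2.33 to 2.9 in hemin DMSO and 1.72 to 3.11 in hemin nilotinib. Mock nilotinib was above mock DMSO in every library, but the log2 difference of 0.63 ± 0.28 did not pass the edgeR test (adjusted p = 0.0816). Without mock nilotinib replicate 1 it was 0.82 (edgeR adjusted p = 0.0373), and it also passed with a replicate block and in the 6 libraries alone (edgeR adjusted p = 0.0478 and 0.0441). With hemin the groups overlapped (log2 difference -0.08 ± 0.28, edgeR adjusted p = 0.803). Per kilobase of gene length, CA1 was 1.03 to 3.75 times CA2 in mock DMSO and 0.46 to 0.694 times CA2 in hemin DMSO. In mock nilotinib the ratio was 76.3 to 153 and in hemin nilotinib 84.8 to 289. Among the 8 tested of 13 other carbonic anhydrases, 1 was higher and 4 were lower with nilotinib under hemin (32.4% and 31.8% of all genes). Without hemin 2 were higher and 3 lower (20.7% and 21.8% of all genes). CA13, a cytosolic relative encoded in the same chromosome 8 cluster, was lower with nilotinib, by log2 fold changes of -1.12 without and -0.69 with hemin (edgeR adjusted p = 0.00317 and 0.0346). CA3 was higher with nilotinib, by 2.02 without and 1.17 with hemin (edgeR adjusted p = 2.86e-05 and 0.00183). Its mean level was 0.867 CPM in mock DMSO and 3.53 CPM in mock nilotinib.

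BPGM, the enzyme that makes the hemoglobin effector 2,3-bisphosphoglycerate, followed nilotinib and not hemin. It stood at 15.5, 17.1 and 18 CPM in mock DMSO and 70.6, 104 and 98.5 CPM in mock nilotinib. It stood at 16, 16.7 and 17.1 CPM in hemin DMSO and 93, 80.6 and 55 CPM in hemin nilotinib. The DMSO groups overlapped each other, and every nilotinib library was above them. The log2 fold change with nilotinib was 2.44 ± 0.19 without hemin and 2.20 ± 0.19 with hemin (edgeR adjusted p = 4.25e-08 and 5.37e-08), and the difference between these of -0.24 ± 0.25 did not pass (edgeR adjusted p = 0.512).

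PGAM1, the phosphoglycerate mutase of the neighbouring glycolytic step, moved the other way. Its log2 fold change with nilotinib was -1.42 without and -1.78 with hemin (edgeR adjusted p = 6.91e-07 and 2.69e-08). Per kilobase, BPGM was 0.0735 to 0.0932 times PGAM1 in mock DMSO and 0.0452 to 0.0606 times in hemin DMSO, against 0.945 to 1.36 in mock nilotinib and 0.713 to 0.878 in hemin nilotinib. Of the 8 tested genes of lower glycolysis and 2,3-bisphosphoglycerate metabolism other than BPGM, 2 were higher and 6 lower with nilotinib under hemin. Over all genes the shares in this comparison were 32.4% and 31.8%. PKLR, which encodes the red cell pyruvate kinase, rose by 3.25 on the log2 scale, while the log2 fold change of PKM, the pyruvate kinase of most other cells, was -3.80 (edgeR adjusted p = 4.52e-08 and 2.22e-10). PKLR stood at 73.8 to 118 CPM in hemin DMSO and 804 to 998 in hemin nilotinib, and PKM at 478 to 708 and 35.8 to 54 CPM.

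**Figure D2:**
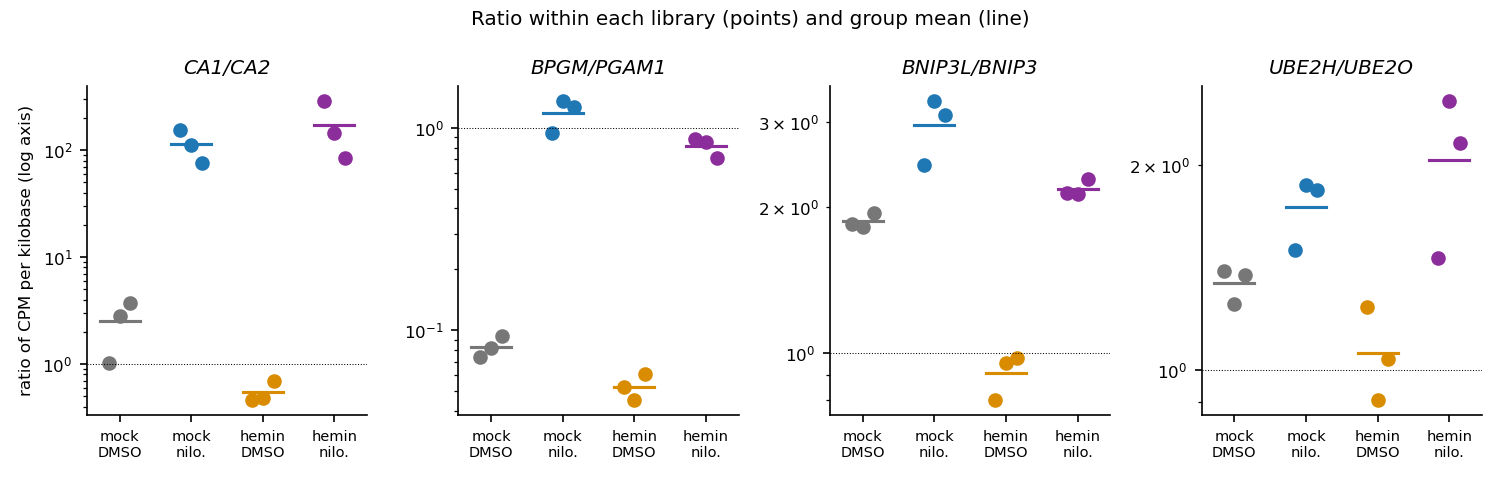
Ratio of levels per kilobase of gene length within each library, by group, on logarithmic axes (points are libraries, lines group means, dotted line equal levels). All pairs are separated by nilotinib with no overlap, by the widest margins for CA1/CA2 and BPGM/PGAM1. BNIP3L/BNIP3 is lowest in hemin DMSO, at 0.798 to 0.977. It is at most 1.95 in mock DMSO and at least 2.13 in the nilotinib groups. UBE2H/UBE2O is 0.905 to 1.4 in the DMSO groups and 1.46 to 2.48 in the nilotinib groups.

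TRIM58, the ligase that targets dynein for degradation, responded in opposite directions to the 2 agents. It stood at 49.8, 74.7 and 90.2 CPM in mock DMSO and at 135, 183 and 218 CPM in mock nilotinib. It stood at 21.8, 24.5 and 26.5 CPM in hemin DMSO and at 131, 205 and 235 CPM in hemin nilotinib. Hemin DMSO was below and both nilotinib groups were above every mock DMSO library, and the nilotinib groups overlapped. Nilotinib raised TRIM58 by 1.32 ± 0.23 on the log2 scale without hemin and by 2.97 ± 0.25 with hemin (edgeR adjusted p = 0.000243 and 4.41e-08), a difference of 1.65 ± 0.33 (edgeR adjusted p = 0.00153). Hemin alone lowered it, with a log2 fold change of -1.56 ± 0.24 (edgeR adjusted p = 4.44e-05). Of 20 tested relatives with RING, B-box and SPRY domains, 8 were higher and 8 lower with nilotinib under hemin. Over all genes the shares in this comparison were 32.4% and 31.8%. TRIM17 rose by 2.90 and TRIM26 had a log2 fold change of -4.80 (edgeR adjusted p = 3.25e-06 and 3.16e-08).

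TMCC2 fell with nilotinib. It stood at 24.8, 22.3 and 22.8 CPM in mock DMSO, 7.41, 7.41 and 8.91 in mock nilotinib, 20.2, 37.2 and 38.2 in hemin DMSO and 5.06, 9.94 and 12.5 in hemin nilotinib. All nilotinib libraries were below all DMSO libraries. The log2 fold change was -1.56 ± 0.27 without hemin and -1.80 ± 0.27 with hemin (edgeR adjusted p = 0.000251 and 3.05e-05). The log2 difference of hemin alone was 0.45 ± 0.26 (edgeR adjusted p = 0.159), and 0.70 without hemin DMSO replicate 1, the lowest of its group (edgeR adjusted p = 0.0308), or 0.49 in the 6 libraries alone (edgeR adjusted p = 0.0426). Of its 2 relatives, TMCC1 did not pass any comparison, with log2 fold changes of -0.16 and 0.07 with nilotinib. TMCC3 stood at 2.16 to 2.94 CPM in mock nilotinib and 0.958 to 2.67 CPM in hemin nilotinib, against 0.108 to 0.358 CPM in mock DMSO and 0 to 0.0638 CPM, under the floor of 3 counts, in hemin DMSO.

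The second question was what hemin did to these genes. Without nilotinib, 2 of the 9 were higher in hemin DMSO than in mock DMSO (25.7% of all genes tested) and 4 were lower (27.8%), with a median log2 fold change of -0.02 against -0.05 for all genes. With nilotinib, 0 of the 9 passed the edgeR test in either direction, where 3.52% of all genes were higher and 2.28% lower. At an unadjusted p under 0.05 this test gave 2 of the 9, UBE2H and XPO7, and DESeq2 and limma also called 0 after adjustment. Both hemin comparisons share libraries with the nilotinib comparisons, so their values are not independent of those above.

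UBE2O, the E2-E3 hybrid that clears unassembled proteins in reticulocytes, was high in one group. It stood at 322, 331 and 326 CPM in hemin DMSO, against 95.3, 105 and 102 CPM in mock DMSO, 115, 114 and 121 in mock nilotinib and 116, 131 and 163 in hemin nilotinib. The hemin DMSO libraries did not overlap with any other group. Hemin alone raised UBE2O by 1.70 ± 0.13 on the log2 scale (3.24-fold, edgeR adjusted p = 6.01e-08), and in the presence of nilotinib the log2 difference was 0.24 ± 0.13 (edgeR adjusted p = 0.309). Nilotinib lowered it under hemin (log2 fold change -1.25 ± 0.13, edgeR adjusted p = 5.18e-07) and not detectably without (0.21 ± 0.13, edgeR adjusted p = 0.207, and 0.0423 in the 6 libraries alone). The interaction was -1.46 ± 0.18 (edgeR adjusted p = 4.28e-05).

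UBE2H, the conjugating enzyme of the CTLH ligase, rose with hemin alone as well but was more scattered. It stood at 134, 131 and 141 CPM in mock DMSO and at 401, 301 and 341 CPM in hemin DMSO. It stood at 173, 214 and 223 CPM in mock nilotinib and at 170, 327 and 353 CPM in hemin nilotinib. Hemin DMSO did not overlap with either mock group. Hemin nilotinib replicate 1 was just below every mock nilotinib library. Replicates 2 and 3 of hemin nilotinib were above every mock nilotinib library and within the range of hemin DMSO. Hemin alone raised UBE2H by 1.36 ± 0.21 on the log2 scale (edgeR adjusted p = 5.76e-05). Nilotinib alone raised it by 0.58 ± 0.21 (edgeR adjusted p = 0.0333). That call was lost without mock DMSO replicate 1, 2 or 3 or mock nilotinib replicate 2 or 3 (edgeR adjusted p = 0.0731 to 0.12), with library totals alone as scaling (edgeR adjusted p = 0.0548) and by limma on log2(FPKM + 1) (adjusted p = 0.0664). The rise with hemin in the presence of nilotinib, 0.48 ± 0.21, did not pass (edgeR adjusted p = 0.188), but without hemin nilotinib replicate 1 it was 0.74 (edgeR adjusted p = 0.00243). The interaction of -0.88 ± 0.29 (edgeR adjusted p = 0.0332) was lost when mock DMSO replicate 1, 2 or 3, mock nilotinib replicate 2 or 3 or hemin DMSO replicate 1 or 3 was left out (edgeR adjusted p = 0.0516 to 0.0792), and with library totals alone (edgeR adjusted p = 0.115).

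Of the 11 CTLH subunits and partners, all tested, 3 were higher and 4 lower with hemin alone (25.7% and 27.8% of all genes). With nilotinib under hemin 3 were higher and 2 lower (32.4% and 31.8% of all genes). RMND5A, a RING subunit, rose by 0.98 with hemin alone, whereas the log2 fold change of its paralog RMND5B was -1.06 (edgeR adjusted p = 3.92e-06 and 1.15e-06). With nilotinib under hemin the corresponding values were -1.26 and 1.63 (edgeR adjusted p = 1.4e-07 and 5.54e-09). MAEA, the RING partner, did not pass any comparison. Of 29 other ubiquitin-conjugating enzymes, 15 were higher and 2 lower with hemin alone (25.7% and 27.8% of all genes). With nilotinib under hemin 5 were higher and 16 lower (32.4% and 31.8% of all genes). Among those of the 29 with a mean of at least 100 counts, UBE2D4 changed most with hemin alone. Its log2 fold change was -1.48 (edgeR adjusted p = 2.19e-05). UBE2B and UBE2A, the E2 enzymes of histone ubiquitination, rose by 1.37 and 1.24 with hemin alone (edgeR adjusted p = 3.38e-05 and 2.65e-07).

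**Figure D3:**
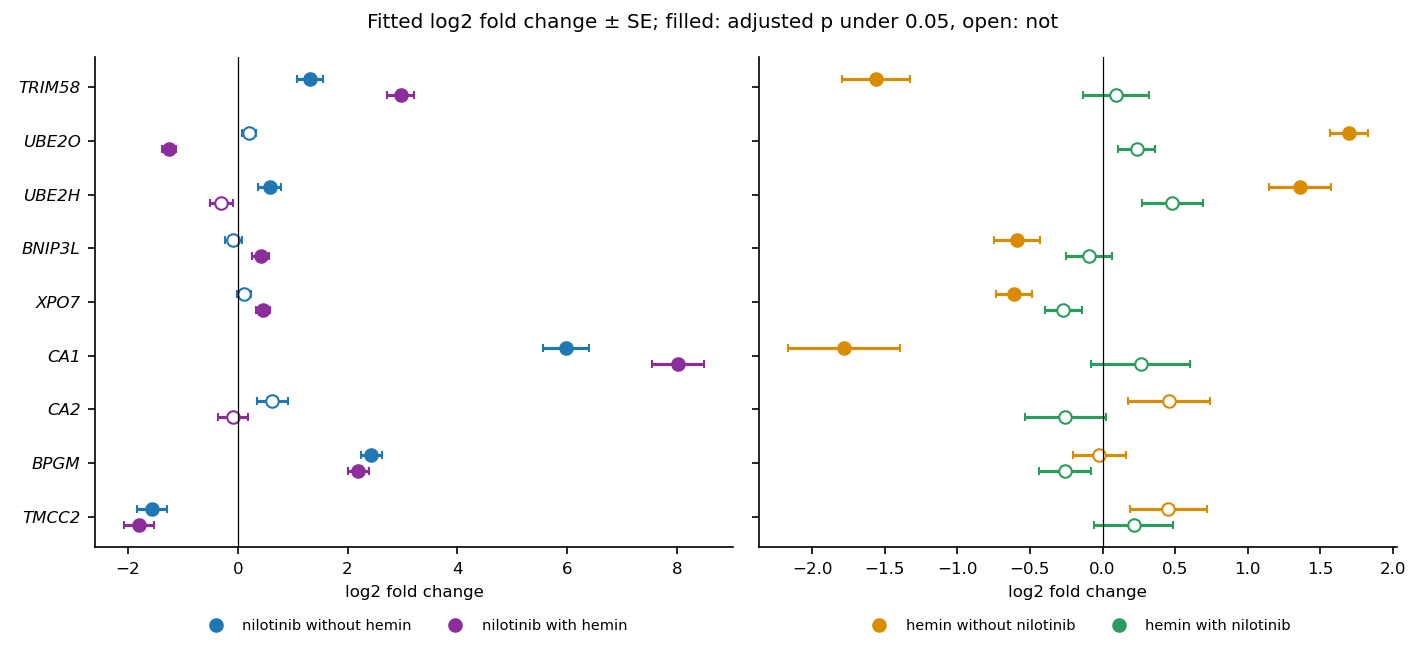
Fitted log2 fold change ± SE of the 9 tested genes for nilotinib (left) and hemin (right), each with and without the other agent. Filled points passed an adjusted p of 0.05 and open points did not. CA1 has the largest change with nilotinib, 5.98 and 8.03. All points for hemin with nilotinib are open, where 3.52% of all genes were higher and 2.28% lower.

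XPO7, which exports histones and other nuclear proteins during chromatin condensation, stood at 196, 203 and 212 CPM in mock DMSO and at 137, 140 and 124 CPM in hemin DMSO. It stood at 196, 233 and 234 CPM in mock nilotinib and at 200, 188 and 161 CPM in hemin nilotinib. Hemin DMSO was below every library of the other groups. Hemin alone lowered XPO7 (log2 fold change -0.61 ± 0.13, edgeR adjusted p = 0.000709) and nilotinib raised it under hemin, by 0.46 ± 0.13 (edgeR adjusted p = 0.00469), but not detectably without hemin (0.12 ± 0.13, edgeR adjusted p = 0.478). RANBP17, the closest relative of XPO7, was at 0 to 0.0507 CPM, under the floor of 3 counts in every library, and was not tested. Of 6 tested exportins other than XPO7, 1 was higher and 5 were lower with hemin alone (25.7% and 27.8% of all genes). With nilotinib under hemin 1 was higher and 2 were lower (32.4% and 31.8% of all genes). With nilotinib alone 0 were higher and 4 lower (20.7% and 21.8% of all genes). XPO5, the exporter of microRNA precursors, had a log2 fold change of -1.42 with hemin alone (edgeR adjusted p = 7.69e-05).

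BNIP3L, the mitophagy receptor, showed a small change of the same kind. It stood at 132, 144 and 136 CPM in mock DMSO and at 84.1, 102 and 87.3 CPM in hemin DMSO. It stood at 99.7, 141 and 149 CPM in mock nilotinib and at 104, 144 and 116 CPM in hemin nilotinib. Hemin DMSO did not overlap with mock DMSO or hemin nilotinib, but it did overlap with mock nilotinib, whose replicate 1 was low. Hemin alone lowered BNIP3L, with a log2 fold change of -0.59 ± 0.16 (edgeR adjusted p = 0.00506). Nilotinib under hemin raised it by 0.42 ± 0.16 (edgeR adjusted p = 0.0302), a call lost without hemin DMSO replicate 1 or 3 or hemin nilotinib replicate 2 (edgeR adjusted p = 0.0914 to 0.181) as well as by DESeq2, by RLE factors and by limma (adjusted p = 0.0541 to 0.0721).

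BNIP3, the paralog of BNIP3L, moved the other way, with a log2 fold change of 0.45 with hemin alone and -0.85 with nilotinib under hemin (edgeR adjusted p = 0.0123 and 7e-05). Per kilobase, BNIP3L was 1.82 to 1.95 times BNIP3 in mock DMSO, 0.798 to 0.977 times in hemin DMSO, 2.45 to 3.32 times in mock nilotinib and 2.13 to 2.29 times in hemin nilotinib. The 4 ranges did not overlap. Of the 11 mitophagy receptors and partners other than BNIP3L, 5 were higher and 0 lower with hemin alone (25.7% and 27.8% of all genes). With nilotinib under hemin 3 were higher and 5 lower (32.4% and 31.8% of all genes). GABARAPL1, an ATG8-family protein that mitophagy receptors bind, rose by 1.97 with hemin alone (edgeR adjusted p = 5.75e-07).

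ALOX15, the reticulocyte lipoxygenase, was at or near the limit of detection. Its counts were 0, 0 and 1 in mock DMSO, 1, 2 and 5 in mock nilotinib, 3, 4 and 1 in hemin DMSO and 1, 2 and 6 in hemin nilotinib. The group totals were 1, 8, 8 and 9 counts, a difference was not detectable at this depth, and 1.31% of its 150-base words also occur in the pseudogene ALOX15P1. With nilotinib under hemin 32.4% of all genes were higher and 31.8% lower. Of 6 tested genes of lipoxygenases and lipid peroxide handling, 4 were higher and 2 lower in this comparison. Among them ALOX12, the platelet lipoxygenase, rose by 1.97 (edgeR adjusted p = 1.86e-06).

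Of 9 genes of nuclear condensation and enucleation, 8 were tested, and 2 were higher and 3 lower with hemin alone. Over all genes the shares in this comparison were 25.7% and 27.8%. CIT, the citron kinase of cytokinesis, had a log2 fold change of -0.86 with hemin alone and 1.39 with nilotinib under hemin (edgeR adjusted p = 3.68e-05 and 1.47e-07).

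The order of the 10 genes by level per kilobase of gene length differed between groups. In mock DMSO, BNIP3L (31.9 ± 1.45 CPM per kilobase, SD, n = 3) and XPO7 (29.5 ± 1.21) came first, TRIM58 (22.2 ± 6.32) and UBE2H (20.8 ± 0.808) did not differ beyond their spread, and CA1 (2.38 ± 1.44) was in place 8. In mock nilotinib CA1 came first at 150 ± 8.23 CPM per kilobase, followed by TRIM58 (55.4 ± 13), while BPGM, XPO7, UBE2H and BNIP3L lay between 30.2 and 35.9, within their spread. In hemin DMSO, UBE2H (53.5 ± 7.75) and UBE2O (50.4 ± 0.719) came first and did not differ beyond their spread, and CA1 was in place 9 at 0.687 ± 0.202. In hemin nilotinib CA1 was first again at 181 ± 55.3 and TRIM58 second at 59 ± 16.6. CA2 was in place 8 or 9 and ALOX15 in place 10 in all 4 groups.

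Over the 12 libraries, which fall into 4 groups and so are not independent points, CA1 and BPGM had a Pearson r of 0.97 and CA1 and TRIM58 of 0.93 in log2 CPM. BNIP3L and XPO7 had an r of 0.81 and UBE2O and UBE2H of 0.80. TMCC2 ran against BPGM (-0.93) and CA1 (-0.92), and UBE2O ran against XPO7 (-0.92).

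**Figure D4:**
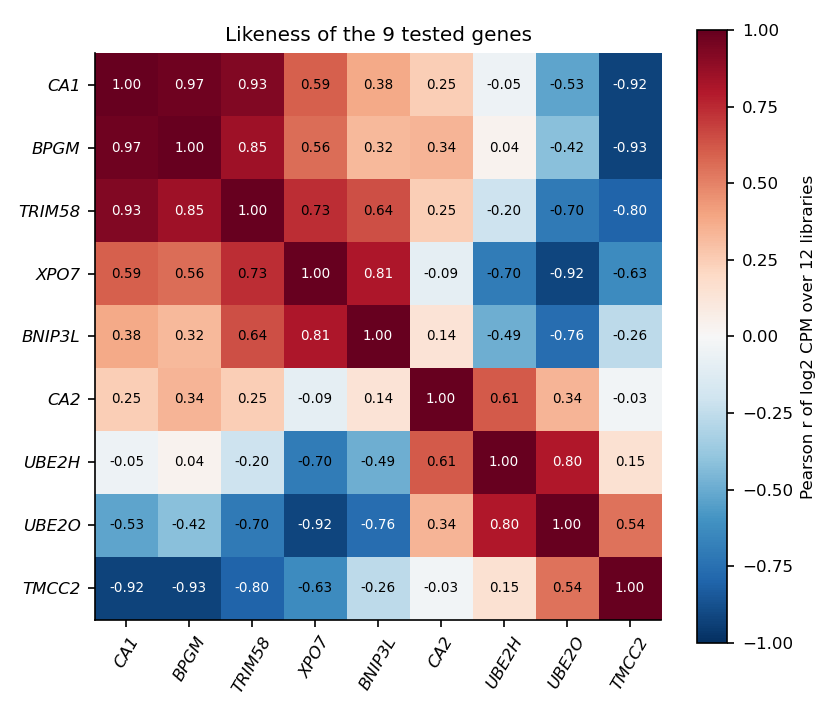
Pearson r of log2 CPM over the 12 libraries for each pair of the 9 tested genes, colored from -1 (blue) to 1 (red). CA1, BPGM and TRIM58 form one block (0.85 to 0.97), UBE2H and UBE2O another (0.80), and TMCC2 is opposite to the first block (-0.80 to -0.93).

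Among 12494 other genes (12495 for CA2) with a mean of at least 100 counts, SLC4A1, the band 3 anion exchanger of the red cell membrane, was most like CA1 (r = 0.996). The closest to BPGM was BTG2 (r = 0.993) and the closest to TRIM58 was AC093890.1 (r = 0.995). HIKESHI, the nuclear import carrier of HSP70, was most like UBE2O (r = 0.993), SEC22B most like UBE2H (r = 0.978), APEX1 most like XPO7 (r = 0.978) and GTPBP8 most like BNIP3L (r = 0.913). VEGFA was most like TMCC2 (r = 0.986) and KLC4 most like CA2 (r = 0.932).

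The third question was whether the nilotinib effect differed with hemin. It did for 4 of the 9 genes by edgeR's test of the interaction, 2 in the positive direction (TRIM58 and CA1, where 17.1% of all genes were positive) and 2 in the negative (UBE2O and UBE2H, where 13% were negative). The calls for UBE2H and CA1 were lost under some settings, as given above. Hemin nilotinib cells were also collected later after the start of nilotinib than mock nilotinib cells. Hemin and this longer time cannot be told apart. The median of the 9 interaction values was -0.24 against 0.06 for all genes on the log2 scale. For XPO7 and BNIP3L the interaction was 0.34 ± 0.18 and 0.50 ± 0.22 and did not pass (edgeR adjusted p = 0.161 and 0.105). With library totals alone as scaling both passed, at 0.55 and 0.71 (edgeR adjusted p = 0.0123 and 0.017), and BNIP3L also passed with a replicate block (0.50, edgeR adjusted p = 0.0432) and without hemin nilotinib replicate 1 (0.61, edgeR adjusted p = 0.0389). Both genes passed with nilotinib under hemin and not without it, which does not show that the effects differ.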

How the data were processed

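RNA-seq of K562 cells was analysed in 12 libraries of 4 groups. The authors deposited raw counts per gene, without normalization, and FPKM per gene, both made by their sequencing service. The submitters' processing notes name GRCh38.p12, DESeq2 and DESeq, and the aligner and counting program are not given in the sources used here. A table of mean FPKM per group was not used here. The 58735 identifiers and names all matched GENCODE 29. The count tests ran in edgeR 4.0.16 (R 4.3.3), with filterByExpr (minimum count 10, minimum total 15), TMM, and quasi-likelihood tests with 1 mean per group over 12 libraries, in 5 comparisons. A gene was called at a Benjamini-Hochberg adjusted p under 0.05 over 20821 genes. SE is the log2 fold change over the square root of F. Steps were tested on simulated data. Alternatives used DESeq2 1.42.0, limma 3.58.1 on log2(FPKM + 1), other scalings and filters, left-out libraries and a replicate block.

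The genes, lists and tests were chosen with earlier results of these data known. Some genes of the lists are not reported here and were left out of the lists' counts and sums. The genes named were the 10 genes, the genes most like each of them over 12 libraries (mean of at least 100 counts), fixed partners and paralogs, and from each list genes among the 3 with the largest change past the threshold. CA3 was named in addition, to set beside CA13. Ratios between genes are given as values, without a test. Same-numbered replicates deviated together between mock nilotinib and hemin nilotinib (r = 0.263, 0.199 and 0.254), but not at every number above 0.1 in other comparisons. Whether replicates were sequenced in batches is not given in the sources used here. SE and SD include the spread between replicates, and the floor of 3 counts covers counting error only. Figures were drawn with matplotlib 3.10.9.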

Additional observations from a re-analysis of the deposited data

Results flagged for a closer look

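The effect of nilotinib differed between cells with and without hemin for 4 of the 9 tested genes. This was by the interaction term of the edgeR quasi-likelihood fit, adjusted by Benjamini-Hochberg. Over all genes 17.1% passed in the positive and 13% in the negative direction. Cells with hemin were also collected later after the start of nilotinib, which cannot be told apart from hemin. The effect was larger with hemin for TRIM58, by 1.65 on the log2 scale (adjusted p = 0.00153), and for CA1, by 2.04 (adjusted p = 0.00742). It was lower with hemin for UBE2O, with a difference of -1.46 (adjusted p = 4.28e-05), and for UBE2H, with a difference of -0.88 (adjusted p = 0.0332). Under alternative settings the UBE2H call was lost in 8 and kept in 11, and the CA1 call was lost in 1 and kept in 18.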

How the results depend on the processing

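Of the values of single genes under alternatives, 627 kept their direction and side of the threshold, 22 lost and 12 gained a call, and 14 changed sign, none of these 14 from a called value. The cause was not tested. The log2 fold change of BPGM with hemin alone turned positive with DESeq2 (0.0198), RLE factors (0.0199), genes of at least 10 counts in every library (0.0138), FPKM (0.0075) and 6 libraries alone (0.0171), and that of CA2 with nilotinib under hemin with library totals alone (0.10). With a library left out, the range spanned 0 for BPGM with hemin alone (-0.15 to 0.0116, positive without hemin DMSO replicate 1), CA2 with nilotinib under hemin (-0.26 to 0.13, positive without hemin nilotinib replicate 1) and BNIP3L with nilotinib alone (-0.22 to 0.0789, positive without mock nilotinib replicate 1). For hemin with nilotinib it spanned 0 for TRIM58 (-0.10 to 0.30, negative without mock nilotinib replicate 1, -0.08, or hemin nilotinib replicate 3), BNIP3L (-0.26 to 0.0017, positive without hemin nilotinib replicate 1) and TMCC2 (-0.0838 to 0.50, negative without hemin nilotinib replicate 3), and for the TMCC2 interaction (-0.49 to 0.0646, positive without hemin nilotinib replicate 1). For hemin with nilotinib, 1208 of all genes passed, against 1974 by DESeq2, 1987 with every gene of at least 1 count, 741 on FPKM, 183 in 6 libraries alone, and 213 to 2793 with a library left out. Of the 9 genes, 1 (UBE2H) passed with every gene of at least 1 count, and 0 to 1 with a library left out, 1 without hemin nilotinib replicate 1. Of the interactions, 4 were positive with library totals alone and 1 on FPKM, and 1 was negative with library totals alone and 1 to 2 with a library left out. Library totals alone moved the median of all genes to 0.199 for nilotinib with hemin, -0.286 for hemin alone and 0.272 for the interaction, and the share of calls that were higher from 48 to 33.9% for hemin alone, from 60.7 to 49.2% for hemin with nilotinib and from 56.7 to 73.3% for the interaction. With the replicate block, CA2 with nilotinib alone (0.59, adjusted p = 0.0478) and the BNIP3L interaction (0.50, adjusted p = 0.0432) passed, and it changed no other call of the 9 genes.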
